A study of Mus musculus with 6 samples.

Results

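NF-κB is a family of transcription factors whose own genes include its subunits and the inhibitors that switch it off, and these genes were measured in hematopoietic stem cells (HSCs) with and without the ribosomal protein Rpl22. The 10 genes were chosen by name, 5 subunits (*Rela*, *Relb*, *Rel*, *Nfkb1* and *Nfkb2*) and 5 inhibitors or feedback genes (*Nfkbia*, *Nfkbib*, *Nfkbie*, *Nfkbiz* and *Tnfaip3*), out of 34573 genes in the count table. All 10 had enough reads to be tested, with 78 to 3065 reads per gene and library. None passed an adjusted p of 0.05 between the genotypes in edgeR's quasi-likelihood test, while 5.57% of the 14004 genes tested did. The unadjusted p was below 0.05 for 1 of the 10, *Rela*, against 22.3% of all genes. DESeq2 and limma-voom, which called 7.85% and 5.30% of all genes with an adjusted p, each called 0 of the 10, with 1 at an unadjusted p below 0.05. The 95% intervals of all 10 fold changes lay between 0.614 and 1.38.

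The cells were Lin- CD48- CD150+ HSCs sorted from the bone marrow of young adult mice on a C57BL/6 background. The paper's definition of these HSCs also requires Sca-1 and c-Kit. In 3 samples the mice were *Rpl22*-/-, lacking the gene from the germline and so in every tissue and not only in HSCs, and in 3 samples they were *Rpl22*+/+. No sample was treated. Poly(A)+ RNA of each was sequenced and its reads counted per gene. The sex of the mice, and whether a sample was 1 mouse or a pool, were not given in the sources used here, so the p-values measure only the spread between these samples, which may in part be technical.

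In a resting cell the NF-κB subunits pair with one another and are held in the cytoplasm by IκB proteins. Signals from receptors for TNF, IL-1, bacterial products and other ligands activate the IKK kinases, which mark IκB for destruction, so that the dimers enter the nucleus and bind κB sites in DNA. Several of their targets are their own inhibitors, which close a feedback loop. In blood cells the pathway is best known for inflammation, for lymphoid development and for cell survival, and HSCs carry receptors through which inflammatory signals reach it. Most of its regulation is by protein location and turnover, which counts of mRNA do not measure.

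The libraries held 9321123 to 13385850 reads on genes, fewest in *Rpl22*+/+ replicate 3. *Rpl22* itself had 449, 527 and 546 reads in the *Rpl22*-/- libraries against 6890, 7001 and 5031 in the *Rpl22*+/+ libraries, so its level was as the labels say in all 6. All 15 HSC markers were detected, with a summed level of 3583 to 3886 CPM (counts scaled to library size) in *Rpl22*-/- and 3685 to 3740 in *Rpl22*+/+ libraries. Among the markers of other blood cells, the B cell genes *Ms4a1* and *Igll1*, the T cell gene *Cd3e*, the dendritic cell gene *Siglech* and the megakaryocyte gene *Gp6* were at 0 reads in every library. Other genes of the same lists were well detected over the 6 libraries, such as *Itga2b* at 374 to 629 CPM, *Vwf* at 191 to 315 CPM, *Bst2* at 39.4 to 55.5 CPM, *Nkg7* at 26.4 to 40.6 CPM and *Cd79b* at 20.7 to 27.6 CPM.

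Because several of these genes are known to be NF-κB targets themselves, the promoter windows of RefSeq (GRCm38.p6, 250 bases before to 50 after each start) were searched on both strands for the κB consensus, a degenerate motif of 10 bases. Overlapping matches were merged into 1. A match was present in 4.51% of 32841 windows, and in at least 1 window of 5.14% of 27018 genes. Windows were listed for 7 of the 10 genes (10 windows), and 5 of these, *Rel*, *Nfkb2*, *Nfkbia*, *Nfkbie* and *Tnfaip3*, held a match, while *Rela* and *Nfkbib* held none. No window was listed for *Relb*, *Nfkb1* or *Nfkbiz*. The matches are printed 5′ to 3′ in the direction of the gene, with the match in capitals, so that the spread of the motif among the feedback genes can be seen. *Cyld* was added because of its result here, as the deubiquitinase of the pathway whose mRNA fell, although it passed in only 8 of 16 alternative fits. Of the other called pathway and target genes, *Bcl2l1*, which rose, also had a match. No match was listed for *Ikbkg*, *Tlr4*, *Tap1*, *Psmb9*, *Tnfaip8*, *Xiap* or *Fth1*. A tie between a match and the change of a gene was not tested. Matches in other pathway genes, such as *Tnip1* and *Tnip3*, are not printed. Each is a description of the letters and not a measured binding site.
*Nfkbia*, chr12:55492658-55492685, minus strand: gactggcttGGAAATTCCCcgcgcctga
*Nfkbie*, chr17:45555585-45555612, plus strand: cagcaaacaGGGGGATTCCggaggggcg
*Tnfaip3*, chr10:19015517-19015544, minus strand: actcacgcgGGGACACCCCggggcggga
*Tnfaip3*, chr10:19015411-19015438, minus strand: gactggaatttccatcGGAAATCCCCct
*Rel*, chr11:23771042-23771070, minus strand: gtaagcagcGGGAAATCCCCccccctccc
*Nfkb2*, chr19:46304689-46304717, plus strand: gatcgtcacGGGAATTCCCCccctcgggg
*Nfkb2*, chr19:46304709-46304736, plus strand: ccctcggggggccgaaaGGGGCTTTCCc
*Nfkb2*, chr19:46305450-46305477, plus strand: ccgacggcaGGAATGTCCCcacaaaagc
*Nfkb2*, chr19:46305696-46305723, plus strand: ggtattttcGGGACTTTCCtaagcagca
*Cyld*, chr8:88696864-88696891, plus strand: tgaccgagcGGAAAGTCCCttcagccag

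The match in *Nfkbia* lay 29 to 20 bases before the start, *Tnfaip3* held a pair in 1 of its 2 windows, and each of the 3 windows of *Nfkb2*, the later pair of which overlap, held at least 1. The 5 genes with a match all had estimates below 0 on the log2 scale and the 2 without had estimates above 0, but none of the 7 passed the test, and the sign turned for *Nfkbie* in 3 and for *Nfkb2* in 1 of the 16 alternative fits. Over all genes tested, the log2 fold change was below 0 for 52.1% of the 585 with a match and for 50.9% of the 8760 with a window and no match. The called genes were 5.30% of the former, 15 higher and 16 lower, and 5.47% of the latter, 287 higher and 192 lower, and the difference in this balance was not tested.

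Per kilobase of exon, the 10 genes spanned a 20.5-fold range in *Rpl22*+/+ HSCs. In TPM, a transcript level scaled to gene length and library, *Nfkbia* was at 116 ± 12.0, *Rela* at 94.3 ± 4.02 and *Nfkb1* at 61.5 ± 2.45 (SD, n = 3). These were followed by *Nfkbib* at 26.2 ± 2.75, *Nfkbie* at 24.7 ± 4.82 and *Nfkb2* at 24.4 ± 2.64 TPM. *Tnfaip3* was at 12.6 ± 1.77, *Nfkbiz* at 7.67 ± 0.760, *Relb* at 7.08 ± 0.588 and *Rel* at 5.67 ± 1.06 TPM. Over the 6 libraries, *Nfkbia* and *Rela* overlapped, as did *Nfkbib*, *Nfkbie* and *Nfkb2* and also *Nfkbiz*, *Relb* and *Rel*, each with its neighbour in this order. *Rela* was above *Nfkb1*, *Nfkb1* above *Nfkbib*, *Nfkb2* above *Tnfaip3* and *Tnfaip3* above *Nfkbiz* in every library. The order depends on the length used. *Nfkb1*, whose annotated exons together cover 12061 bases, rose to the top at 135 ± 5.14 TPM when its longest transcript of 4149 bases was used, and the range became 31.5-fold.

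**Figure D1:**
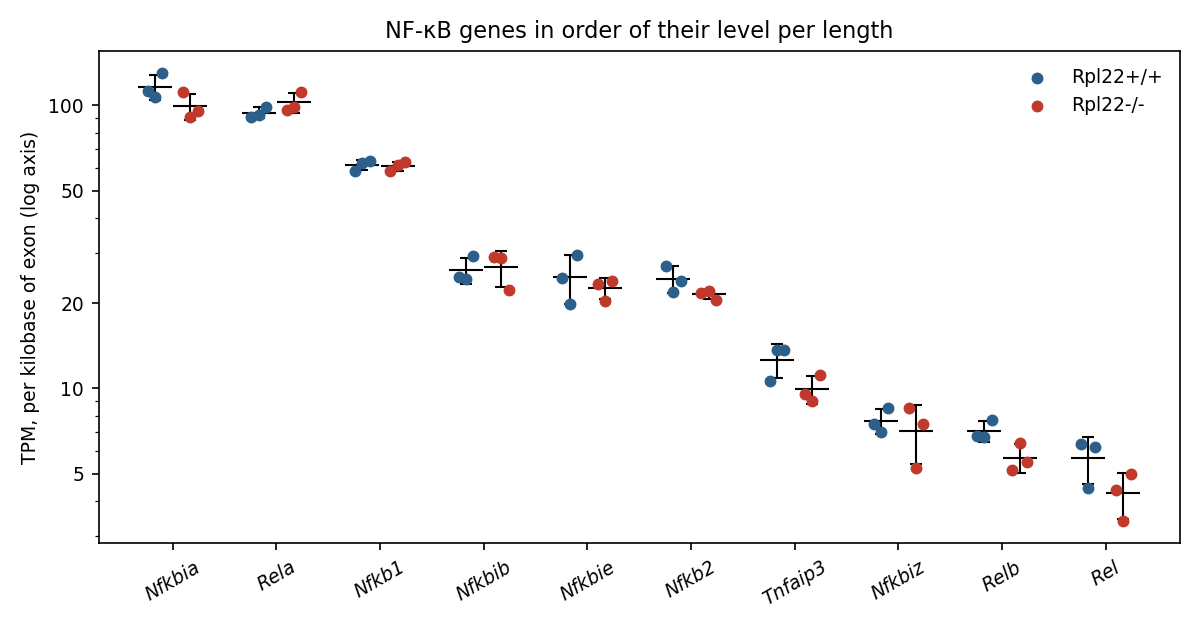
Level per length of the 10 NF-κB genes in TPM (log axis), in order of the Rpl22+/+ mean. Points are libraries (blue, Rpl22+/+; red, Rpl22-/-), horizontal lines are means and bars are SD, n = 3. Nfkbia, Rela and Nfkb1 stand above the other 7 genes in all 6 libraries, and Rel and Relb are at the low end.

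The 5 subunits differ in what they contribute to the dimers. *Rela*, *Relb* and *Rel* encode the subunits with transactivation domains, and *Nfkb1* and *Nfkb2* encode the precursors of p50 and p52, which lack one. Of the summed TPM of the 5 subunit genes, *Rela* held 48.9% ± 0.791 in *Rpl22*+/+ and 52.5% ± 1.58 in *Rpl22*-/- libraries, and these values did not overlap. The share of *Relb* also did not overlap, in the other direction, at 3.67% ± 0.181 and 2.92% ± 0.367. *Nfkb1* held 31.9% and 31.3%, *Nfkb2* 12.6% and 11.1%, and *Rel* 2.93% and 2.18%. With the longest transcript as the length, *Nfkb1* took the largest share, 54.4% in *Rpl22*+/+ libraries, and *Rela* had 32.4% against 35.1% and *Relb* 2.55% against 2.05%, both again without overlap. These shares rest on the same reads as the levels that follow and were not tested. The shares of a library add up to the whole, so a higher share of *Rela* lowers the sum of the others. In CPM, *Relb* overlapped between the genotypes, and 26.9% of all genes tested did not overlap.

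*Rela* (chr19:5637483-5648130, plus strand, GRCm38) encodes p65, the main activating subunit of the classical pathway. Its level was 83.5, 83.3 and 85.9 CPM in the *Rpl22*+/+ libraries and 90.3, 99.2 and 105 CPM in the *Rpl22*-/- libraries. Every *Rpl22*-/- library was above every *Rpl22*+/+ library. The other 9 genes overlapped between the genotypes, and 26.9% of all genes tested did not. The means of *Rela* were 98.3 ± 7.52 and 84.3 ± 1.47 CPM (SD, n = 3). Its log2 fold change was 0.22 (SE 0.0857, 95% interval 0.041 to 0.40), with an unadjusted p of 0.0197 that adjustment took to 0.137 in edgeR's quasi-likelihood test. Without *Rpl22*-/- replicate 1, the lowest of its group, *Rela* passed at 0.28 on the log2 scale (adjusted p = 0.0417), in a fit that called 12.1% of all genes. Its estimate was 0.13 (adjusted p = 0.436) once the trend of each library on gene length and GC content was removed.

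*Nfkb1* (chr3:135584655-135691547, minus strand) was at 211, 220 and 216 CPM in *Rpl22*+/+ and 215, 242 and 233 CPM in *Rpl22*-/- libraries. The lowest *Rpl22*-/- library was within the range of the controls. Its log2 fold change was 0.091 (SE 0.0829, 95% interval −0.085 to 0.27), with an adjusted p of 0.557. The estimate was larger, 0.21 (SE 0.0816, adjusted p = 0.177), with length and GC trends removed. *Nfkb2* (chr19:46304320-46312385, plus strand), the precursor subunit of the non-canonical pathway and itself a known NF-κB target, was at 37.1, 29.4 and 31.2 CPM in *Rpl22*+/+ and 30.4, 33.1 and 28.9 CPM in *Rpl22*-/- libraries. The highest and the lowest value came from different genotypes but the groups overlapped. Its log2 fold change of −0.081 (95% interval −0.34 to 0.17, adjusted p = 0.743) turned to 0.026 without *Rpl22*+/+ replicate 1, which held the highest value. Of its exon bases, 11.6% are shared with *AC114539.1* and 6.52% with *Psd* on the opposite strand, and the strand setting of the counting was not stated, so reads there cannot be told apart.

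*Relb* and *Rel* were the least abundant subunits. *Relb* (chr7:19606217-19629438, minus strand), the partner of p52 in the non-canonical pathway, was at 7.84, 7.62 and 8.53 CPM in *Rpl22*+/+ and 6.08, 8.16 and 6.53 CPM in *Rpl22*-/- libraries. In *Rpl22*-/-, replicates 1 and 3 were below every control and replicate 2 was among them. The log2 fold change was −0.21 (SE 0.193, 95% interval −0.62 to 0.20, adjusted p = 0.571). *Rel* (chr11:23736847-23770970, minus strand) encodes c-Rel, a subunit used mainly in lymphoid and other immune cells. Its level was 14.1, 9.71 and 13.1 CPM in *Rpl22*+/+ and 9.98, 8.32 and 11.4 CPM in *Rpl22*-/- libraries. The lowest control lay between the *Rpl22*-/- libraries. *Rel* had the lowest estimate of the 10, a log2 fold change of −0.31 with the widest reach below 0 (SE 0.184, 95% interval −0.70 to 0.080, adjusted p = 0.340).

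**Figure D2:**
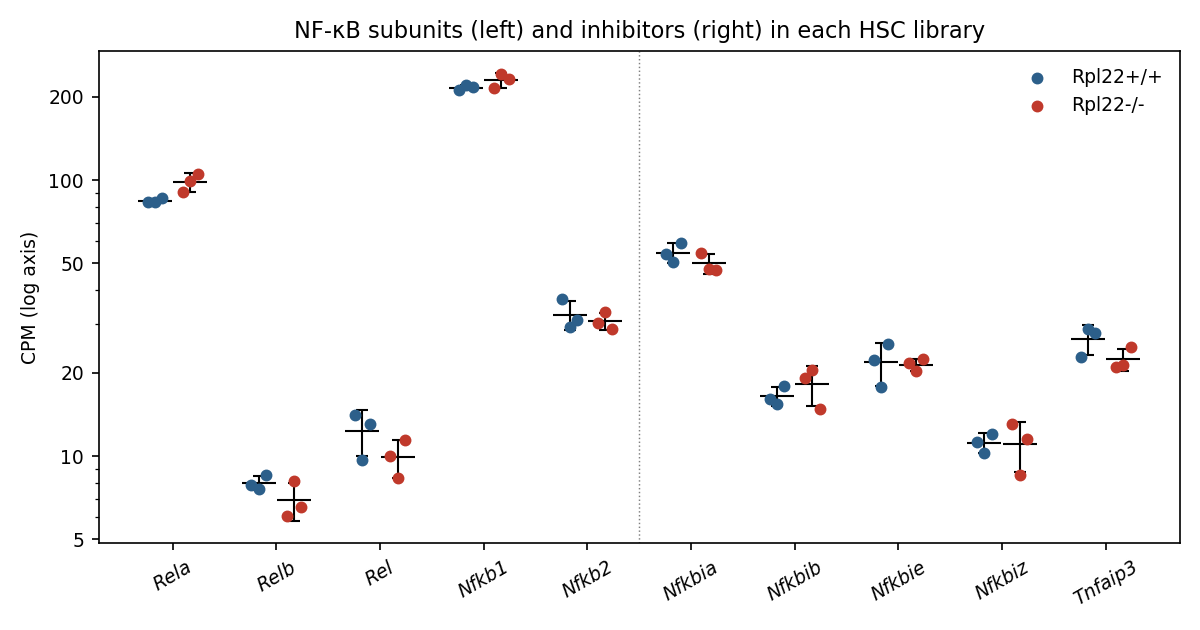
CPM of each of the 10 NF-κB genes in every library (blue, Rpl22+/+; red, Rpl22-/-), with the mean as a line and the SD as a bar, n = 3. Rela is the gene whose 3 Rpl22-/- libraries, 90.3 to 105 CPM, all lie above the Rpl22+/+ libraries, 83.3 to 85.9 CPM, and the other 9 overlap.

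The IκB genes encode the proteins that hold the dimers back. *Nfkbia* (chr12:55489410-55492647, minus strand) encodes IκBα, which NF-κB induces and which is resynthesised as the signal ends. It was at 53.8, 50.4 and 59.2 CPM in *Rpl22*+/+ and 54.6, 47.8 and 47.2 CPM in *Rpl22*-/- libraries. The highest *Rpl22*-/- library was above 2 of the 3 controls. The log2 fold change was −0.13 (SE 0.0998, 95% interval −0.34 to 0.086, adjusted p = 0.492). With length and GC trends removed it was −0.26 (SE 0.0973, adjusted p = 0.159). *Nfkbib* (chr7:28758251-28767512, minus strand), which encodes IκBβ, was at 16.1, 15.4 and 18.0 CPM in *Rpl22*+/+ and 19.3, 20.5 and 14.8 CPM in *Rpl22*-/- libraries. Its *Rpl22*-/- libraries lay on both sides of the controls, and the log2 fold change was 0.14 (SE 0.150, 95% interval −0.18 to 0.46, adjusted p = 0.626). Of its exon bases, 14.5% are shared with *Ccer2* and 1.94% with *Sirt2* on the opposite strand.

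*Nfkbie* (chr17:45555703-45563169, plus strand) encodes IκBε, another inducible inhibitor of this class, and was at 22.3, 17.7 and 25.5 CPM in *Rpl22*+/+ and 21.7, 20.3 and 22.4 CPM in *Rpl22*-/- libraries. All *Rpl22*-/- libraries were inside the range of the controls. The log2 fold change was −0.020 (95% interval −0.32 to 0.28, adjusted p = 0.955). *Nfkbiz* (chr16:55811375-55838899, minus strand) encodes IκBζ, a nuclear member of the family that acts at target promoters. It was at 11.2, 10.3 and 12.1 CPM in *Rpl22*+/+ and 13.0, 8.57 and 11.5 CPM in *Rpl22*-/- libraries. Here the *Rpl22*-/- libraries spread over a wider range than the controls, and the log2 fold change was −0.013 (95% interval −0.39 to 0.37, adjusted p = 0.975). *Tnfaip3* (chr10:19000910-19015657, minus strand) encodes A20, the ubiquitin-editing enzyme that shuts the pathway off upstream of IKK and is induced by it. It was at 22.8, 28.8 and 28.0 CPM in *Rpl22*+/+ and 21.0, 21.4 and 24.8 CPM in *Rpl22*-/- libraries. The lowest control lay between the *Rpl22*-/- libraries, and the log2 fold change was −0.24 (SE 0.133, 95% interval −0.52 to 0.041, adjusted p = 0.3004).

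**Figure D3:**
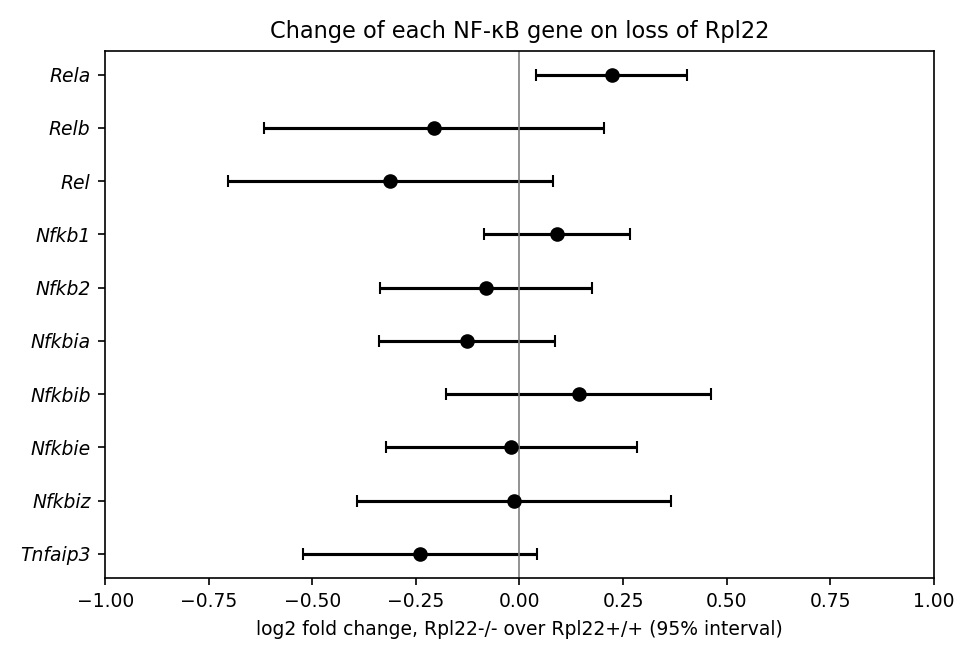
log2 fold change of each NF-κB gene, Rpl22-/- over Rpl22+/+ (points), with its 95% interval from edgeR's quasi-likelihood fit (bars). The interval of Rela, 0.041 to 0.40, lies above 0, the other 9 contain 0, and all 10 stay within 1 log2 unit of it.

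Of the 10 estimates, 3 were above 0 and 7 below, with a median log2 fold change of −0.051 against −0.0068 over all genes tested. The median was −0.15 without *Rpl22*+/+ replicate 2. These intervals bound the differences at this number of samples, and a p above the threshold does not show that the genotypes were alike. In bulk RNA, fewer cells of a type and less RNA per cell cannot be told apart.

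**Figure D4:**
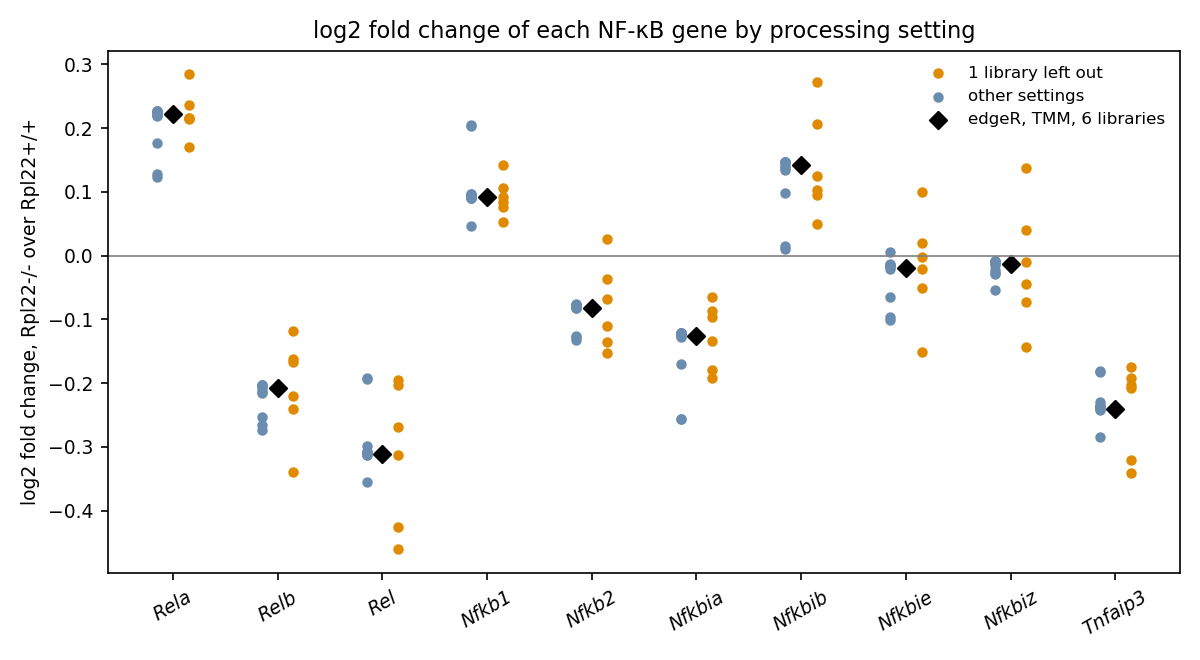
log2 fold change, Rpl22-/- over Rpl22+/+ (vertical axis), of each NF-κB gene (horizontal axis). Black diamonds are the values reported, orange points leave out 1 library and blue points are the other ways of processing the counts. Estimates of Rela stayed between 0.12 and 0.28, whereas those of Nfkb2, Nfkbie and Nfkbiz lay on both sides of 0.

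Upstream of the NF-κB genes, 73 genes of the pathway were listed by role, from ligands to the ubiquitin brakes, and 62 were tested. Of these, 3 fell (*Ikbkg*, *Tlr4* and *Cyld*) and 0 rose, and the median of their log2 fold changes was −0.010. Over all genes tested, 2.29% fell and 3.28% rose. At an unadjusted p below 0.05 in edgeR there were 11 of the 62, against 22.3% of all genes. When 1 library was left out, 0 of the 62 passed, except without *Rpl22*-/- replicate 1, when 5 did. All genes moved likewise, with 0.892% to 2.59% called in the former fits and 12.1% in the latter. DESeq2 called 5 and limma-voom 3. With length and GC trends removed, *Ikbkg*, *Tlr4* and *Cyld* no longer passed (adjusted p = 0.114, 0.127 and 0.245), whereas *Ltb* (−0.44, adjusted p = 0.0258) and *Tab2* (0.35, adjusted p = 0.0419) did. In that fit 3.61% of all genes were called.

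Among the kinases, *Ikbkg* encodes NEMO, the regulatory subunit of the IKK complex. It was at 85.6, 86.6 and 92.9 CPM in *Rpl22*+/+ and 74.7, 64.3 and 68.5 CPM in *Rpl22*-/- libraries. The groups did not overlap, and *Ikbkg* fell by 0.35 on the log2 scale (SE 0.0882, adjusted p = 0.0315). For *Chuk*, which encodes the catalytic subunit IKKα, the log2 fold change was −0.18 (adjusted p = 0.333) and the other 2 kinases listed, *Ikbkb* and *Map3k14*, also did not pass. The atypical IκB genes *Bcl3* (0.22, adjusted p = 0.680) and *Nfkbid* (−0.074, adjusted p = 0.823) did not pass.

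Of 18 receptors, 12 were tested, 1 fell and 0 rose, against 2.29% and 3.28% of all genes tested. *Tlr4*, the receptor for bacterial lipopolysaccharide, was at 24.7, 24.0 and 23.6 CPM in *Rpl22*+/+ and 17.1, 15.2 and 18.4 CPM in *Rpl22*-/- libraries. All *Rpl22*-/- libraries were below all controls, and *Tlr4* fell by 0.51 on the log2 scale (SE 0.128, adjusted p = 0.0315). For *Tnfrsf13c*, the BAFF receptor, the value was 0.40 (adjusted p = 0.192). Of 12 ligands, 7 were tested and 0 passed in edgeR, DESeq2 or limma-voom. In edgeR 2 had an unadjusted p below 0.05, against 22.3% of all genes. These 2 were *Tnf*, with 16, 14 and 11 reads in *Rpl22*+/+ and 23, 31 and 36 reads in *Rpl22*-/- libraries (log2 fold change 1.01, adjusted p = 0.104), and *Ltb*, which encodes lymphotoxin β (−0.27, adjusted p = 0.130). The *Tnf* libraries did not overlap, but its level was 1.17 ± 0.0558 CPM in the controls.

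The 26 adaptors and relay genes were all tested and 0 passed in edgeR, while DESeq2 called 2 and limma-voom 0. In edgeR 4 had an unadjusted p below 0.05, against 22.3% of all genes. Nearest to the threshold in edgeR were *Tab2*, an adaptor of the kinase TAK1 (log2 fold change 0.31, adjusted p = 0.0563), and *Birc2*, which encodes the ubiquitin ligase cIAP1 (−0.34, adjusted p = 0.0578). All 11 genes listed as ubiquitin brakes, a list that also holds *Irak3*, *Sigirr* and *Tollip*, were tested. Of these 1 fell, against 2.29% of all genes tested. This was *Cyld*, a deubiquitinase that removes the chains on which IKK is activated, at 109.9, 107 and 112 CPM in *Rpl22*+/+ and 98.0, 81.8 and 81.8 CPM in *Rpl22*-/- libraries. The groups did not overlap, and *Cyld* fell by 0.33 on the log2 scale (SE 0.0905, adjusted p = 0.0445), and its estimate was −0.19 with length and GC trends removed. *Itch*, a ubiquitin ligase gene of this group, was at −0.27 on that scale (adjusted p = 0.0840).

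Downstream, 40 genes known as NF-κB targets were listed and 27 were tested. Of these, 4 rose and 2 fell, against 3.28% and 2.29% of all genes tested, and the median log2 fold change was 0.035. The 13 not tested for want of reads included the inflammatory genes *Il6*, *Cxcl1*, *Ccl2*, *Ptgs2* and *Nos2*. *Tap1*, the peptide transporter of antigen presentation, was at 167, 182 and 195 CPM in *Rpl22*+/+ and 267, 224 and 254 CPM in *Rpl22*-/- libraries. Its groups did not overlap and it rose by 0.46 on the log2 scale (SE 0.0930, adjusted p = 0.0131). *Psmb9*, an immunoproteasome subunit, rose from 95.8 ± 4.70 to 126 ± 4.99 CPM (log2 fold change 0.40, adjusted p = 0.0143). *Tap1* and *Psmb9* are neighbouring genes and also known interferon targets.

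The other targets that rose were *Bcl2l1*, which encodes the survival protein Bcl-xL, from 35.4 ± 1.05 to 48.8 ± 9.80 CPM (log2 fold change 0.46, adjusted p = 0.0470), and *Fth1*, the ferritin heavy chain, from 475 ± 11.2 to 592 ± 32.2 CPM (0.32, adjusted p = 0.0445). Those that fell were *Tnfaip8*, from 109.8 ± 3.87 to 84.6 ± 1.93 CPM (−0.38, adjusted p = 0.0160), and *Xiap*, an inhibitor of caspases, from 153 ± 3.48 to 125 ± 3.63 CPM (−0.30, adjusted p = 0.0394). The estimate for *Xiap* was −0.057 (adjusted p = 0.736) once length and GC trends were removed. Genes of cell survival were among both. The 6 calls became 0 without *Rpl22*-/- replicate 3, without *Rpl22*+/+ replicate 1 or without *Rpl22*+/+ replicate 2. They were 3 without *Rpl22*-/- replicate 2, 2 without *Rpl22*+/+ replicate 3, and 2 with length and GC trends removed. These fits called 0.892% to 3.61% of all genes. The calls rose to 8 without *Rpl22*-/- replicate 1, in a fit that called 12.1% of all genes. *Ccl2*, tested in that fit, and *Dusp2* were the genes added. *Tap1* and *Psmb9* each passed in 13 of the 16 alternative fits, *Tnfaip8* in 10, *Xiap* in 9 and *Bcl2l1* and *Fth1* in 7.

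**Figure D5:**
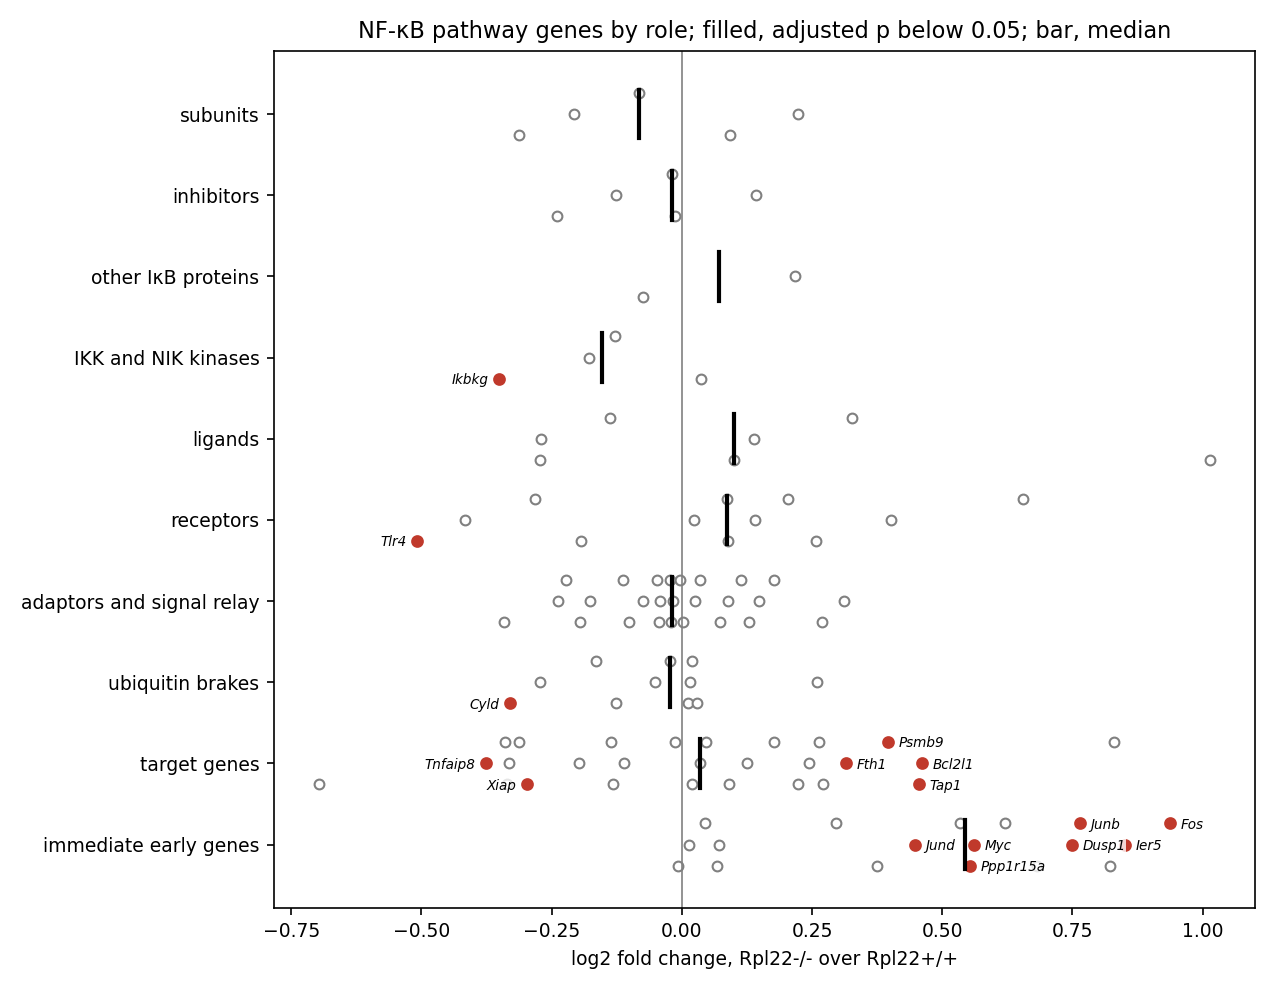
log2 fold change of each tested gene, Rpl22-/- over Rpl22+/+, by role. Filled points passed an adjusted p of 0.05 in edgeR's quasi-likelihood test, open points did not, black bars are medians, and the vertical position within a role has no meaning. The 5 subunits and 5 inhibitors hold no filled point, Ikbkg, Tlr4 and Cyld are filled below 0, and the immediate early genes have a median of 0.54.

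Immediate early genes, which cells switch on within minutes of many stimuli and of handling, moved with the genotypes. Of 25 listed, 18 were tested, 7 rose and 0 fell, against 3.28% and 2.29% of all genes, and the median of their log2 fold changes was 0.54. *Ppp1r15a*, a stress-induced phosphatase subunit, rose by 0.55 (adjusted p = 0.00639) and *Junb*, a subunit of the factor AP-1, by 0.76 (adjusted p = 0.00764). The others were *Ier5*, *Myc*, *Fos*, *Dusp1* and *Jund*. The summed level of the list was 814 to 1055 CPM in *Rpl22*-/- and 542 to 712 CPM in *Rpl22*+/+ libraries, without overlap. The 7 calls became 2 without *Rpl22*-/- replicate 3, 4 without *Rpl22*-/- replicate 2, 3 without *Rpl22*+/+ replicate 2 or 3, 11 without *Rpl22*-/- replicate 1, and 3 with length and GC trends removed. The calls over all genes moved likewise, from 5.57% to 0.892% without *Rpl22*-/- replicate 3 and 12.1% without *Rpl22*-/- replicate 1. *Nfkbia*, *Nfkbiz* and *Tnfaip3*, which are also known to respond early to stimuli, did not pass the test, as given above. The part of this difference in the values of *Tnf* and of the target genes was not tested.

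Genes listed as markers of other cells also moved, and over all genes tested 3.28% rose and 2.29% fell. Of 10 megakaryocyte markers, 9 were tested and 6 rose, with the smallest p-values in *Treml1* (log2 fold change 0.78, adjusted p = 0.00441) and *Itga2b* (0.51, adjusted p = 0.0115), and their summed level was 1150 to 1427 CPM in *Rpl22*-/- and 823 to 1072 CPM in *Rpl22*+/+ libraries. Of 10 dendritic cell markers, 7 were tested and 3 rose, with sums of 185 to 233 and 144 to 168 CPM, with the smallest p-values in *H2-Ab1* (1.09, adjusted p = 0.00753) and *Bst2* (0.46, adjusted p = 0.0115). The other was *H2-Eb1*. *Flt3*, of the same list, was at −0.36 (adjusted p = 0.0675), and its *Rpl22*-/- libraries were all below the controls. Of the 10, 3 were under 1 CPM in every library. Of 10 neutrophil markers, 9 were tested and 2 rose, *Ctsg* (2.85, adjusted p = 0.0282) and *Camp* (2.43, adjusted p = 0.0291), with overlapping sums of 100.3 to 225 and 66.9 to 106 CPM. The 6 megakaryocyte calls were 3 without *Rpl22*-/- replicate 2 or 3, 1 without *Rpl22*+/+ replicate 1 and 2 without *Rpl22*+/+ replicate 3. They were 5 without *Rpl22*-/- replicate 1 or *Rpl22*+/+ replicate 2. Over all genes, leaving out 1 library gave calls from 0.892% (without *Rpl22*-/- replicate 3) to 12.1% (without *Rpl22*-/- replicate 1). The 3 dendritic cell calls were 0 without *Rpl22*-/- replicate 3, 2 without *Rpl22*+/+ replicate 1 or 2 and 4 without *Rpl22*-/- replicate 1. The 2 neutrophil calls were 0 without *Rpl22*-/- replicate 2 or 3 or *Rpl22*+/+ replicate 2, and 5 without *Rpl22*-/- replicate 1. They were 4 without *Rpl22*+/+ replicate 1, 3 without *Rpl22*+/+ replicate 3 and 1 in DESeq2 or limma-voom. The T and NK cell sum was 51.0 to 60.9 against 44.6 to 48.4 CPM, and that of B cells 27.5 to 30.7 against 24.6 to 26.1 CPM. *Nkg7* made up most of the former and *Cd79b* most of the latter. Of the 10 genes in each list, 6 and 7 were under 1 CPM in every library. In edgeR, DESeq2 or limma-voom, 0 genes of these 2 lists passed, with 1 of each at an unadjusted p below 0.05 in edgeR. Over all genes tested, 22.3% had such a p in edgeR. The monocyte sum was 207 to 266 against 215 to 233 CPM, with 0 of 6 tested genes called by any of the 3 tools and 1 at an unadjusted p below 0.05 in edgeR. The erythroid sum was 76.3 to 90.1 against 98.2 to 113 CPM, but *Tfrc*, the transferrin receptor, which fell by 0.55 (adjusted p = 0.00753), made up most of it, and without *Tfrc* the sums were 27.4 to 31.6 and 26.8 to 28.7 CPM. Of the HSC markers, *Gata2* rose by 0.39 (adjusted p = 0.0190) and *Fgd5* fell by 0.41 (adjusted p = 0.0308). Whether these values come from other cells in the samples or from the HSCs themselves was not tested. Any part of such cells in the values of *Rela*, *Tap1*, *Psmb9* and the rest of the pathway was also not tested.

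*Lin28b* is the fetal RNA-binding protein gene that the study links to NF-κB in Rpl22-deficient lymphoid disease. For the myeloid leukemias the paper states that NF-κB does not appear to explain the induction, since RNA-seq showed no NF-κB signature. It also reports no rise of *Lin28b* in adult HSCs lacking Rpl22. Here *Lin28b* had 8, 16 and 9 reads in the *Rpl22*+/+ HSC libraries and 19, 3 and 13 reads in the *Rpl22*-/- HSC libraries. The groups overlapped, and the log2 fold change was −0.042 (95% interval −1.22 to 1.13, adjusted p = 0.974), an interval that holds differences of 1 log2 unit in either direction.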

How the data were processed

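HSC RNA was sequenced in 3 *Rpl22*-/- and 3 *Rpl22*+/+ samples (TruSeq, poly(A)+). Per the labels, the authors aligned reads to mm10 with TopHat2 2.1.1 and counted them with HTSeq, and the deposited values are raw counts per gene. The annotation and strand setting were not given in the sources used here. Unassigned lines, 58.6% to 60.9% of each library, were left out. The number of unused sample columns was 0. Counts limit precision to counting error plus the spread of 3 libraries.

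In edgeR 4.0.16 (R 4.3.3), filterByExpr (minimum count 10) kept 14004 genes. The quasi-likelihood test with TMM scaling and Benjamini-Hochberg adjustment over all genes compared the genotypes, with genotype as its single term. The fit was tested on simulated data. CPM use TMM-scaled libraries. TPM use exon lengths of GRCm38 genes, with 29093 symbols matched directly, 1880 by older symbols and 3600 unmatched, and were not used to compare genotypes except as shares.

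The genes named included the 10, *Rpl22*, *Lin28b* and the genes called in the pathway, target and immediate early lists. From each of these lists the 2 with the lowest p were also named. Of the marker lists not every called gene was named. Further genes were named to describe the levels or content of a list. The members and lists were chosen with earlier results of these data known. Alternatives were other scalings, DESeq2 1.42.0, limma-voom 3.58.1, other filters, leaving out each library, a replicate block, and removal of each library's length and GC trends (lowess, span 0.3).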

Additional observations from a re-analysis of the deposited data

How the results depend on the processing

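No NF-κB subunit or inhibitor gene passed in 15 of 16 alternative fits, and leaving out 1 library at a time gave 0 to 1, the 1 being *Rela* without *Rpl22*-/- replicate 1. The median log2 fold change of the 10 was −0.051 and ranged from −0.15 to −0.0060 over these fits, the former without *Rpl22*+/+ replicate 2. The sign turned for *Nfkbie* in limma-voom (0.0060), without *Rpl22*-/- replicate 2 (0.019) and without *Rpl22*+/+ replicate 3 (0.10), for *Nfkbiz* without the same libraries (0.14 and 0.041), and for *Nfkb2* without *Rpl22*+/+ replicate 1 (0.026). Leaving out 1 library gave −0.15 to 0.10 for *Nfkbie*, −0.14 to 0.14 for *Nfkbiz* and −0.15 to 0.026 for *Nfkb2*. With length and GC trends removed, *Rela* was at 0.13, *Nfkb1* at 0.21 and *Nfkbia* at −0.26, and none of them passed. Which gene stood furthest from 0 relative to its SE thus depended on this step. The 9 calls among the other 89 tested pathway and target genes ranged from 0 to 13 when 1 library was left out and were 4 with length and GC trends removed. The 21 calls over the immediate early and marker lists ranged from 5 to 31 when 1 library was left out and were 35 with no filter on low counts. The range of levels per length was 20.5-fold with exon unions and 31.5-fold with longest transcripts. The calls over all genes ranged from 127 without *Rpl22*-/- replicate 3 to 1720 without *Rpl22*-/- replicate 1, and were 1057 in DESeq2 against 780. The causes were not tested.

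Same-numbered samples of the 2 genotypes did not deviate together (correlations of −0.10, 0.051 and 0.045), and not every sample correlated best with its own number. These values show no pairing by number, but with 3 samples per genotype this check cannot exclude it. With the replicate number as a block, 0 of the 10, 9 other pathway genes and 24 genes of the immediate early and marker lists passed, and with the block and length and GC trends removed 0, 4 and 19 passed. Depth limits the low genes, with 78 to 102 reads per library for *Relb*.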
